A study of Mus musculus with 2 samples.

Results

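Mature migratory dendritic cells were examined in single-cell RNA-Seq libraries of tumor-bearing mouse liver. Dendritic cells take up antigen in tissue, and on maturation they stop sampling, load peptides on MHC molecules, raise costimulatory ligands and travel through lymph vessels to draining lymph nodes, where they present antigen to T cells. In tumors such cells carry activating and inhibitory ligands side by side, among them PD-L1, a ligand of the PD-1 receptor on T cells. They are rare in most tissues and are recognized by a small set of genes for migration and maturation that resting dendritic cells lack.

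Cells were selected on their own counts. Kept cells had 500 to 5000 detected genes and at most 10% of their unique molecular identifiers (UMIs, one per captured transcript) from mitochondrial genes. Of these, a cell was taken with a UMI of *Fscn1*, UMIs of at least 3 of the 5 markers *Fscn1*, *Ccr7*, *Ccl22*, *Cacnb3* and *Il4i1*, at least 3 UMIs over the MHC class II genes *H2-Aa*, *H2-Ab1* and *Cd74*, and no UMI of the T cell gene *Cd3e* or the B cell gene *Cd79a*. This gave 105 of 31891 kept cells, 64 of 15531 under PBS and 41 of 16360 under anti–PD-1.

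Both libraries came from shYT mice, in which doxycycline induces shRNAs that target *Yap1* and *Wwtr1*, the TAZ gene, together with a broadly expressed CAG-rtTA3 driver, so the shRNAs were not limited to tumor cells and both groups carried them. Cholangiocarcinoma was induced by hydrodynamic tail vein injection of plasmids for an activated Notch receptor (NICD) and an activated AKT kinase (myr-AKT). Doxycycline was given from day 25, mice received anti–PD-1 antibody (clone RMP1-14) on days 26, 29 and 32, or PBS, and whole tumor-bearing livers were analyzed on day 33. The labels give no shRNA line, age, sex or number of animals, cells were not assigned to animals, and with 1 library per group no difference has a replicate check. The study gives a number of animals beside its maps of T cells, and it was not used here. All intervals below are exact 95% intervals that cover counting error only.

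The selected cells summed to 379940 UMIs under PBS and 274231 under anti–PD-1, with medians of 5141 (range, 1050 to 22141) and 4976 (range, 992 to 20728) UMIs per cell. The libraries share 219 of their 19397 and 19451 cell barcodes, none of them between selected cells, although 1 selected cell has a barcode that the other library also holds. UMIs of *Xist*, expressed from the inactive X chromosome, were found in 41 of 64 cells of the PBS library and 0 of 41 of the anti–PD-1 library (upper limit of the share, 8.60%), and 10 and 27 cells held a UMI of a Y-linked gene and none of *Xist*. UMIs of both were held by 4 PBS cells and 0 anti–PD-1 cells, and whether those 4 are mixed cells was not tested. The mix of sexes therefore differed between the libraries, and the PBS cells included both kinds. In the comparison of all selected cells this mix cannot be told apart from treatment. Some values are also given below for the cells that held Y-linked but not *Xist* UMIs. *Yap1* had 1 UMI under PBS and 0 under anti–PD-1 and *Wwtr1* had 0 in both, so the knockdown cannot be checked here.

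Levels of the markers used for selection were fixed in part by the selection itself. *Fscn1*, the actin-bundling protein fascin of dendrites, reached 1648 CPM (UMIs per 1000000 UMIs summed over the cells) under PBS and 1612 CPM under anti–PD-1, and a UMI of it was found in 1.79% and 0.942% of T cells, taken here as kept cells with *Cd3e* and *Cd3d* UMIs (2406 and 2549 cells, median depths of 3140 and 4082 UMIs). *Ccr7*, the receptor that guides cells to lymph nodes, was at 1537 CPM under PBS and 3410 CPM under anti–PD-1. *Ccl22*, a chemokine that attracts CCR4-bearing T cells, was at 529 and 817 CPM. These levels chose the cells and are given as a description only.

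*Ccr7* UMIs were present in 57 of 64 and 40 of 41 selected cells, against 15.0% and 32.6% of T cells, which use the same receptor. *Cacnb3*, a calcium channel subunit, was at 503 CPM under PBS and 427 CPM under anti–PD-1. *Il4i1*, a secreted enzyme that breaks down aromatic amino acids, was at 653 and 481 CPM and was seen in 84.4% and 68.3% of cells. With every cell thinned to 2000 UMIs, which 61 and 35 cells reached, the shares for *Il4i1* were 63.9% and 48.6% and those for *Ccl22* 44.3% and 42.9% (unthinned, 57.8% and 56.1%), so the order of the libraries was the same for these genes. For *Cacnb3* it turned, from 79.7% and 73.2% unthinned to 49.2% and 51.4% thinned. In T cells the unthinned shares for *Il4i1* were 1.33% and 0.942% and those for *Ccl22* 0.540% and 0.667%. All of these genes chose the cells, so their shares, order and contrast with T cells are a description only.

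**Figure D1:**
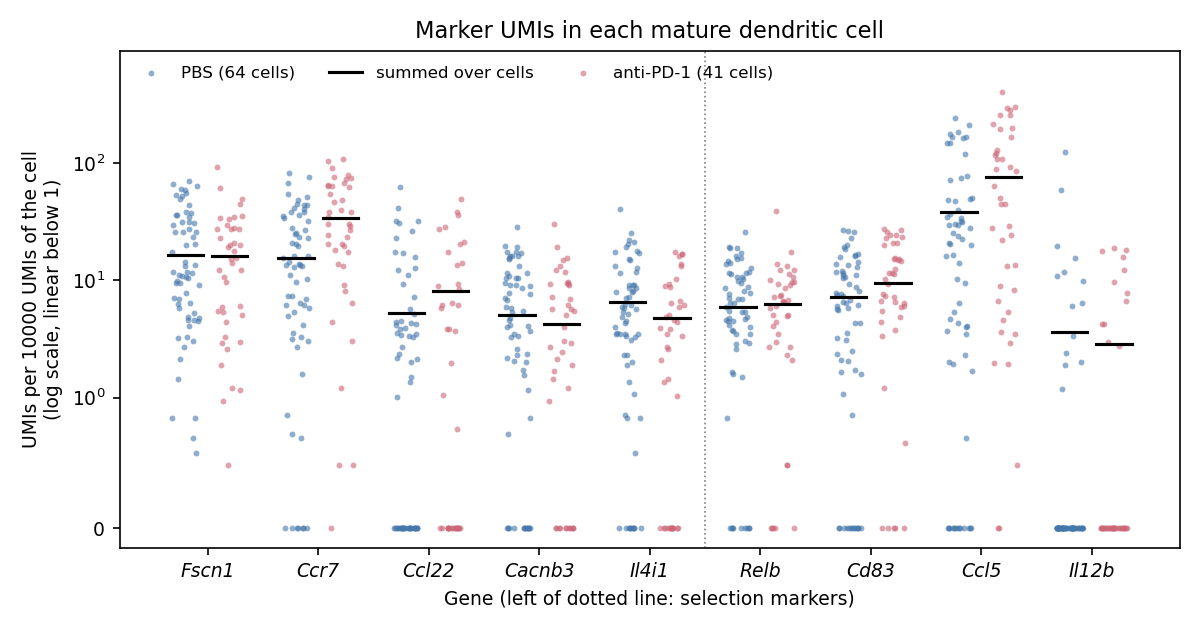
Each point is 1 mature dendritic cell of the PBS or anti–PD-1 library, the vertical axis gives UMIs of the gene per 10000 UMIs of that cell on a log axis that is linear below 1, and short bars are the values summed over the cells of a library. All 105 cells lie above 0 for *Fscn1*, which the selection required, while *Il12b* is at 0 in most cells and high in a few.

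Cells just inside and just outside the limit of 3 markers differed in level. In the PBS library, 77 otherwise eligible cells with 2 markers had 230 CPM of *Fscn1* and 22.5 CPM of *Ccr7*, and the 17 cells with 3 markers had 603 and 930 CPM. In the anti–PD-1 library, 34 cells with 2 markers had 254 CPM of *Fscn1* and 147 CPM of *Ccr7*, and the 17 cells with 3 markers had 557 and 1681 CPM. Cells with all 5 markers reached 2807 CPM of *Fscn1* under PBS (24 cells) and 2471 CPM under anti–PD-1 (15 cells). The level of *Fscn1* was higher with each further marker in both libraries, and since markers chose the cells this is a description only.

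The selected cells were then compared with resting conventional dendritic cells of the same library on 30 maturation genes that the selection did not use. Type 1 cells (cDC1) were taken as kept cells with UMIs of both *Xcr1* and *Clec9a*, at least 3 MHC class II UMIs and no *Fscn1*, *Cd3e* or *Cd79a* UMI (81 and 60 cells), and type 2 cells (cDC2) as kept cells with a *Cd209a* UMI, the same MHC class II limit and no UMI of *Fscn1*, *Cd3e*, *Cd79a*, *Xcr1*, *Clec9a* or *C1qa* (144 and 53 cells). Ratios are log2 ratios of CPM after adding 10 CPM, over 5552 genes with a mean of at least 25 CPM in the selected cells, and 2-fold means a log2 ratio of at least 1 or at most −1. Over cDC1, 27 of the 30 maturation genes were at least 2-fold higher in both libraries, where 8.54% of all tested genes were. Over cDC2, 28 of 30 were, where 7.13% of all tested genes were. These genes were listed with earlier results of these data known. The CPM minimum was set on the selected cells alone, and both comparison gates excluded *Fscn1*. The cDC1 gate held RNA of other cells, with monocyte and macrophage markers at 10744 and 10125 CPM (cDC2, 3913 and 3650 CPM). Its median depths were 8460 and 12818 UMIs, above the 5141 and 4976 of the selected cells. The counts are therefore a description and no independent check of cell identity. Markers of other cells were higher in the selected cells too, with 7 of 8 tested tumor and biliary epithelial markers at least 2-fold above cDC1 in both libraries (medians, 1.33 and 2.16), and 4 of 8 of these and 6 of 12 monocyte and macrophage markers above cDC2. Without the cells carrying RNA of other cells, described below and left out partly on these same markers, 0 of 8 epithelial markers were 2-fold above either gate and 1 of 12 macrophage markers was above cDC2, while 28 and 29 of the 30 maturation genes were 2-fold above cDC1 and cDC2 (medians, 3.04 and 3.90, and 3.50 and 3.53).

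Median log2 ratios of the maturation genes over cDC1 were 2.73 under PBS and 3.58 under anti–PD-1, and over cDC2 they were 3.22 and 3.16. For all tested genes these medians lay between 0.06 and 0.18. *Relb*, the NF-kB subunit tied to dendritic cell maturation, was 3.33 and 4.18 above cDC1 and 3.04 and 3.32 above cDC2 on the log2 scale. *Tmem123*, a cell surface mucin, was 4.06 and 3.92 above cDC1, and *Nudt17*, a Nudix hydrolase, 4.80 and 4.83. *Socs2*, a feedback inhibitor of cytokine signaling, was 3.77 and 3.98 above cDC1, and *Fabp5*, a fatty acid binding protein, 4.46 and 3.75. All 30 genes were above 0 against either gate in each library.

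**Figure D2:**
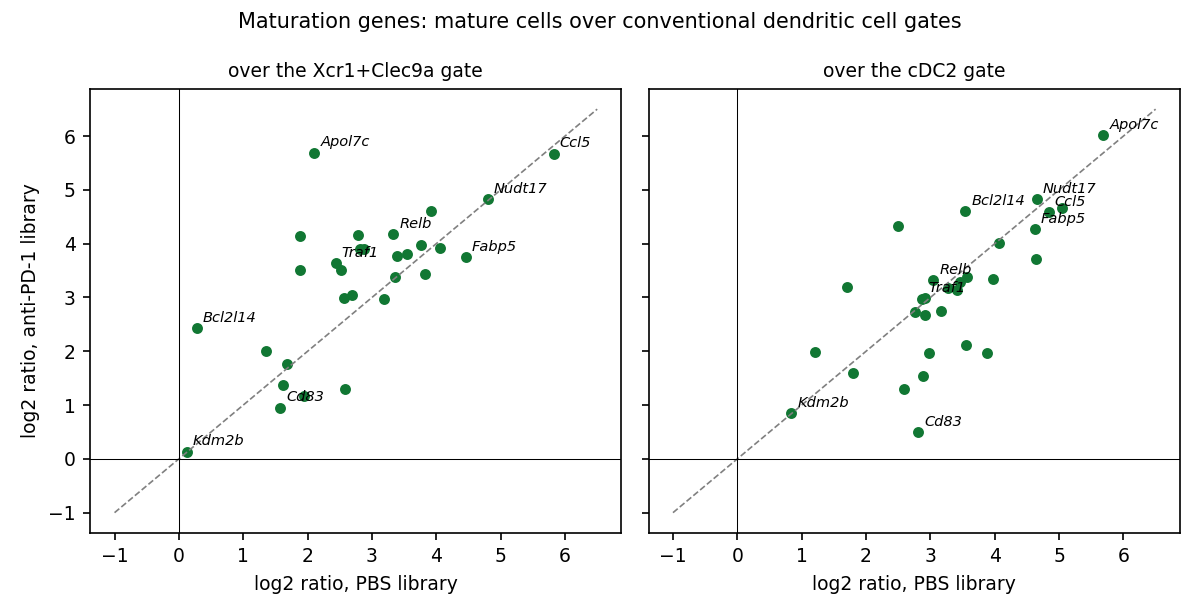
Each point is 1 of the 30 maturation genes, placed by its log2 ratio of mature cells over the *Xcr1* and *Clec9a* gate (1 panel) or the cDC2 gate (the other panel), with the PBS library on the horizontal axis and the anti–PD-1 library on the vertical axis. All 30 genes lie above 0 on both axes in both panels.

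Genes of each resting subset were lower than in the gate of that same subset. Over cDC1, 6 of 7 tested cDC1 markers were at least 2-fold lower in both libraries (medians, −3.07 and −2.94), where 2.27% of all tested genes were. Over cDC2, 4 of 10 tested cDC2 markers were (medians, −1.24 and −0.95), where 2.43% of all tested genes were. *Xcr1*, the cDC1 receptor for XCL1, had 2 UMIs under PBS and 3 under anti–PD-1, and *Clec9a*, the cDC1 receptor for dead-cell actin, had 3 and 9. *Cd209a*, a lectin of cDC2, had 4 and 0. *Xcr1*, *Clec9a* and *Cd209a* chose the comparison gates, so their contrast with these gates is no finding. The crossed contrasts did not show lower levels throughout. Over cDC1, 3 of 10 tested cDC2 markers were at least 2-fold higher in both libraries and 0 lower (medians, 0.74 and 0.89). Of all tested genes, 8.54% were higher and 2.27% lower there. Over cDC2, 2 of 7 tested cDC1 markers were higher and 2 lower (medians, 0.52 and −0.04), against 7.13% and 2.43%.

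Genes of both subsets were detected in part of the selected cells. Counting UMIs of *Xcr1*, *Clec9a*, *Cadm1*, *Tlr3* and *Wdfy4* as cDC1 genes and of *Cd209a*, *Clec10a*, *Mgl2*, *Sirpa* and *Itgam* as cDC2 genes, 8 of 64 cells under PBS and 8 of 41 under anti–PD-1 had cDC1 genes only. cDC2 genes only were found in 9 and 8 cells, both in 20 and 9, and neither in 27 and 16. The share with cDC1 genes only was 12.5% (5.55% to 23.2%) and 19.5% (8.82% to 34.9%), and that with cDC2 genes only 14.1% (6.64% to 25.0%) and 19.5% (8.82% to 34.9%), so these intervals overlapped widely. A UMI of any of the cDC1 genes was found in 43.8% and 41.5% of the selected cells and in 10.1% and 12.4% of T cells, and with all cells thinned to 2000 UMIs in 17 of 61 (17.1% to 40.8%) and 7 of 35 (8.44% to 36.9%) against 5.79% and 6.48%. For the cDC2 genes, of which *Sirpa* and *Itgam* are shared with other myeloid cells, these shares were 45.3% and 41.5% against 13.1% and 15.2%, and thinned 36.1% (24.2% to 49.4%) and 14.3% (4.81% to 30.3%) against 8.76% and 7.53%. The thinned cDC2 share of the anti–PD-1 cells was thus not above that of T cells beyond counting error, and no origin is read from these shares. A UMI of the lineage genes *Flt3*, the receptor for the dendritic cell growth factor, or *Zbtb46*, a transcription factor of conventional dendritic cells, was found in 73.4% and 56.1% of cells and in 3.08% and 2.79% of T cells (thinned, 52.5% and 37.1% against 1.68% and 1.39%). UMIs of at least 2 of 14 cycling genes were found in 30 of 64 and 26 of 41 cells (46.9% and 63.4%), near the 47.5% and 65.9% of T cells, and UMIs of at least 2 of the mitotic genes *Mki67*, *Top2a*, *Cdk1* and *Birc5* in 2 and 0 cells, against 8.81% and 11.9% of T cells.

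Some of the selected cells also held RNA typical of other cells. Of the 64 cells in the PBS library, 17 had at least 0.25% of their UMIs from tumor or biliary keratin and secretory genes, C1q genes of macrophages, *S100a8* and *S100a9* of neutrophils or collagen genes of fibroblasts, or at least 0.1% from T cell genes, and 11 of the 41 in the anti–PD-1 library did. Epithelial genes accounted for 10 and 5 of these cells, C1q genes for 8 and 3, neutrophil genes for 2 and 2, T cell genes for 1 and 2 and collagen genes for 0 and 1. A UMI of any of 12 T cell genes was found in 14 of 64 PBS cells and 22 of 41 anti–PD-1 cells. When cells with a UMI of *Cd3d*, *Cd3g*, *Trac*, *Cd79b* or *Ms4a1* were excluded too, 57 and 28 cells remained. By doublet score, 1 selected cell of each library lay among the top 5% of kept cells. Their median scores were 0.054 and 0.048, above the 0.031 and 0.030 of all kept cells. Some values without these 17 and 11 cells are given below.

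Mature cells made up 0.412% (0.317% to 0.526%) of kept cells under PBS and 0.251% (0.180% to 0.340%) under anti–PD-1. The ratio of the shares was 0.608 (0.401 to 0.914), and without cells carrying RNA of other cells it was 0.606 (0.370 to 0.978). With more T and B cell genes excluded it was 0.466 (0.286 to 0.745). As a share of kept cells with at least 3 MHC class II UMIs (10194 and 14561 cells) the values were 0.628% and 0.282%, a ratio of 0.448. That denominator held most kept cells and more of them under anti–PD-1. Its gene *Cd74* had a UMI in 74.1% and 95.1% of T cells, so it is not a count of antigen-presenting cells. After every kept cell was thinned to 1000 UMIs before selection, 29 of 14456 and 25 of 15013 cells passed, with a ratio of 0.830 (0.466 to 1.47) whose interval includes 1. Among dendritic cells the order depended on the gate. With the planned wider cDC1 gate, which also took macrophages, mature cells were 4.03% and 3.81% (ratio, 0.946, 0.623 to 1.42). With the *Xcr1* and *Clec9a* gate, chosen after seeing the data, mature cells were 22.1% (17.5% to 27.4%) under PBS and 26.6% (19.8% to 34.3%) under anti–PD-1, a ratio of 1.20 (0.792 to 1.81). Both intervals of the ratio among dendritic cells included 1. As a share of kept cells, the ratio of the *Xcr1* and *Clec9a* gate was 0.703 (0.495 to 0.994) and that of the cDC2 gate 0.349.

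**Figure D3:**
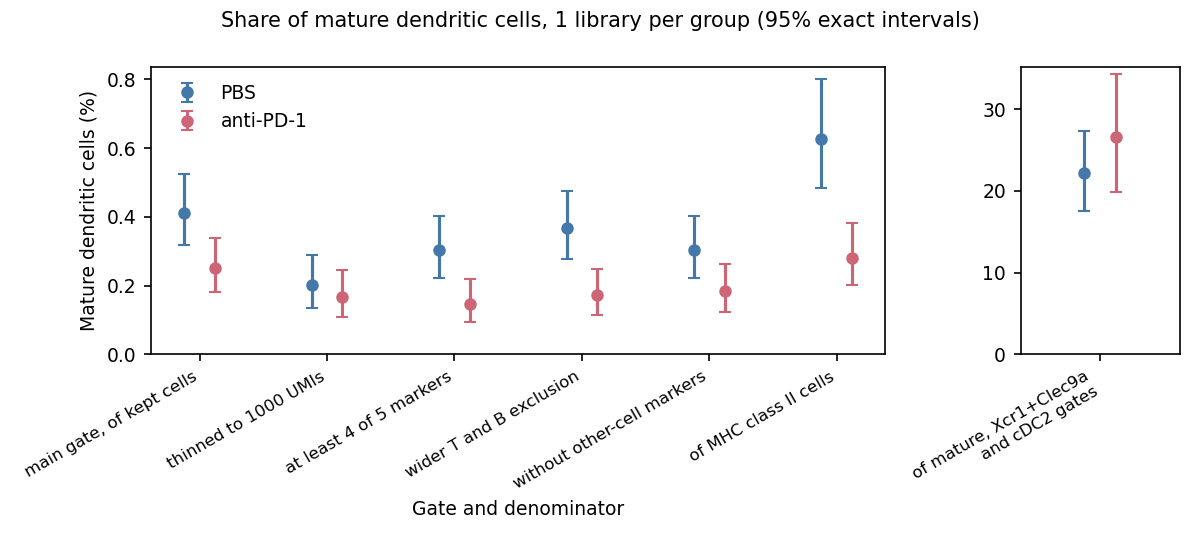
Points give mature dendritic cells as a percentage of the named denominator in the PBS and anti–PD-1 library, under the main selection and its alternatives, and bars are exact 95% intervals for counting error in 1 library per group. The main shares are 0.412% and 0.251%, and against the mature, cDC1 and cDC2 cells together they are 22.1% and 26.6%.

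Between the libraries, 244 of the 5552 tested genes (4.39%) were at least 2-fold higher in the anti–PD-1 cells and 392 (7.06%) at least 2-fold lower, with a median log2 ratio of −0.08 over all tested genes. A ratio above 0 was found for 44.1% of tested genes and one below 0 for 55.9%, and counts of higher or lower genes in a list are to be read against these shares. For 229 and 356 of them the counting interval lay on the same side of 0. Without the cell that held most UMIs of each gene, 127 genes were at least 2-fold higher and 331 at least 2-fold lower, so single cells carried part of the higher genes. In all other kept cells the median was also −0.08, and 67 of the higher and 38 of the lower genes passed 2-fold there in the same direction. The share of all tested genes past 2-fold in those cells is not given here, so nothing is read from this overlap. Ratios below are log2 ratios of anti–PD-1 over PBS with 10 CPM added, and a list's median stands beside that −0.08. A range given as over alternatives runs from the lowest to the highest value under up to 14 other settings of the pseudocount, the CPM minimum, the scaling, the cell weights, the depth and the cells included. Where single cells held a large part of a gene's UMIs, that share is given.

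Costimulatory ligands did not move together. Of 7 tested, 2 were at least 2-fold higher, 1 at least 2-fold lower, and the median log2 ratio was 0.18, with no settled sign (−0.18 to 0.96 over alternatives, the lowest in cells that held Y-linked but not *Xist* UMIs and the highest with cells of more than 5000 genes included). *Icosl*, the ligand of the T cell receptor ICOS, had 103 UMIs in 40 PBS cells (271 CPM) and 19 UMIs in 14 anti–PD-1 cells (69.3 CPM), a log2 ratio of −1.83 (−2.50 to −1.18) against −0.39 in all other kept cells. It was −1.10 with cells of more than 5000 detected genes included (78 and 46 cells) and −0.56 in the 10 and 27 cells that held Y-linked but not *Xist* UMIs, and it stayed below 0 under all 14 alternatives tried, the lowest being −2.43 in thinned cells. In both libraries the level of *Icosl* in mature cells was above that of cDC1, by 2.32 and 0.93, and of cDC2, by 1.61 and 0.70. Between the libraries its ratio was −0.44 in cDC1 and −0.92 in cDC2. *Tnfsf9*, the ligand of 4-1BB, had 20 UMIs (52.6 CPM) and 70 UMIs (255 CPM), a log2 ratio of 2.08 (1.43 to 2.75), but 1 cell held 40.0% of them under PBS and 42.9% under anti–PD-1. All other kept cells gave 1.55 for *Tnfsf9*, and it was 1.43 in mature cells thinned to 2000 UMIs, 3.25 without cells carrying RNA of other cells and 3.28 in cells that held Y-linked but not *Xist* UMIs.

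*Cd80* and *Cd86*, both ligands of CD28 and CTLA-4, pointed in opposite directions. *Cd80* was at 111 CPM under PBS and 241 CPM under anti–PD-1, a log2 ratio of 1.06 (0.51 to 1.61; 0.52 to 1.57 over the 14 alternatives), and was seen in 16.4% and 40.0% of cells thinned to 2000 UMIs (unthinned, 34.4% and 41.5%, and 3.78% and 8.08% of T cells). *Cd86* was at 258 and 160 CPM, a log2 ratio of −0.65 (−1.17 to −0.15), and was seen in 25 of 61 and 8 of 35 thinned cells (unthinned, 65.6% and 43.9%, and 8.19% and 11.1% of T cells). With cells of more than 5000 detected genes included, the ratio of *Cd86* was 0.51, so its direction rests on that limit. *Cd40*, the receptor through which helper T cells license dendritic cells, was at 237 and 270 CPM, a log2 ratio of 0.18 (−0.26 to 0.62), 0.79 without cells carrying RNA of other cells and −0.03 to 0.96 over alternatives.

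*Tnfrsf9*, the gene of the receptor 4-1BB itself, was lower with anti–PD-1. It had 24 UMIs spread over 20 of 64 PBS cells (63.2 CPM) and 0 UMIs in 41 anti–PD-1 cells. Against a floor of 3 UMIs over the library the level was at least 5.77-fold lower, while the counting interval of the log2 ratio, which also covers the error of the 24 UMIs, reached up to −1.51. A ratio against 0 UMIs depends on the CPM added, and that of *Tnfrsf9* was −6.00 with 1 CPM and −1.18 with 50 CPM added. All other kept cells moved the opposite way, with a log2 ratio of 1.00. No single cell held more than 8.33% of its UMIs in the PBS library. *Tnfrsf4* (OX40) was at 179 CPM under PBS and 135 CPM under anti–PD-1, a ratio of −0.38 (−0.96 to 0.18), and was 4.05 and 3.53 above cDC1. The ratio of *Tnfrsf4* was −0.72 with cells weighted equally and 0.48 in cells that held Y-linked but not *Xist* UMIs. A UMI of *Tnfrsf4* was seen in 37.5% and 22.0% of mature cells (thinned, 24.6% and 17.1%) and in 18.7% and 27.5% of unthinned T cells.

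Among regulatory and checkpoint ligands, 5 of 10 tested were higher and 5 lower, 1 of them at least 2-fold higher, with a median log2 ratio of 0.32, which had no settled sign either (−0.13 without each gene's largest cell to 0.98 for genes with a mean of at least 100 CPM). *Cd274*, the gene of PD-L1, was at 150 CPM under PBS and 255 CPM under anti–PD-1, a log2 ratio of 0.73 (0.23 to 1.23), while all other kept cells gave 1.91. It was 1.92 and 1.38 above cDC1 in the 2 libraries. In cells thinned to 2000 UMIs it was seen in 32.8% and 31.4% (unthinned, 53.1% and 65.9%, and 8.15% and 20.7% of T cells), and the ratio of the thinned sums was −0.09 and that with cells of more than 5000 genes included 1.40, so no direction is read for *Cd274*. *Pdcd1lg2*, the gene of PD-L2, had 20 and 7 UMIs (52.6 and 25.5 CPM), a log2 ratio of −0.82 (−1.80 to 0.21), but −1.56 with more T and B cell genes excluded and 0.57 in cells that held Y-linked but not *Xist* UMIs. A UMI of *Pdcd1lg2* was seen in 28.1% and 9.76% of mature cells (thinned, 11.5% and 2.86%) and in 9.93% and 9.81% of unthinned T cells.

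*Cd200*, a surface ligand that restrains myeloid cells through CD200R, had 34 UMIs in 17 PBS cells (89.5 CPM) and 52 UMIs in 21 anti–PD-1 cells (190 CPM), a log2 ratio of 1.00 (0.40 to 1.61; 0.59 to 1.92 over the alternatives), against −0.46 in all other kept cells. It was seen in 8.20% (2.72% to 18.1%) and 31.4% (16.9% to 49.3%) of thinned cells, with 7.56% and 7.61% of T cells unthinned. *Cd200* in mature cells was thus higher in the anti–PD-1 library on either measure, and in thinned PBS cells its share was near that in T cells, which were not thinned. *Fas*, a death receptor, was at 89.5 and 186 CPM, a log2 ratio of 0.98 (0.37 to 1.59), which was 0.62 without cells carrying RNA of other cells and 4.32 in cells that held Y-linked but not *Xist* UMIs.

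**Figure D4:**
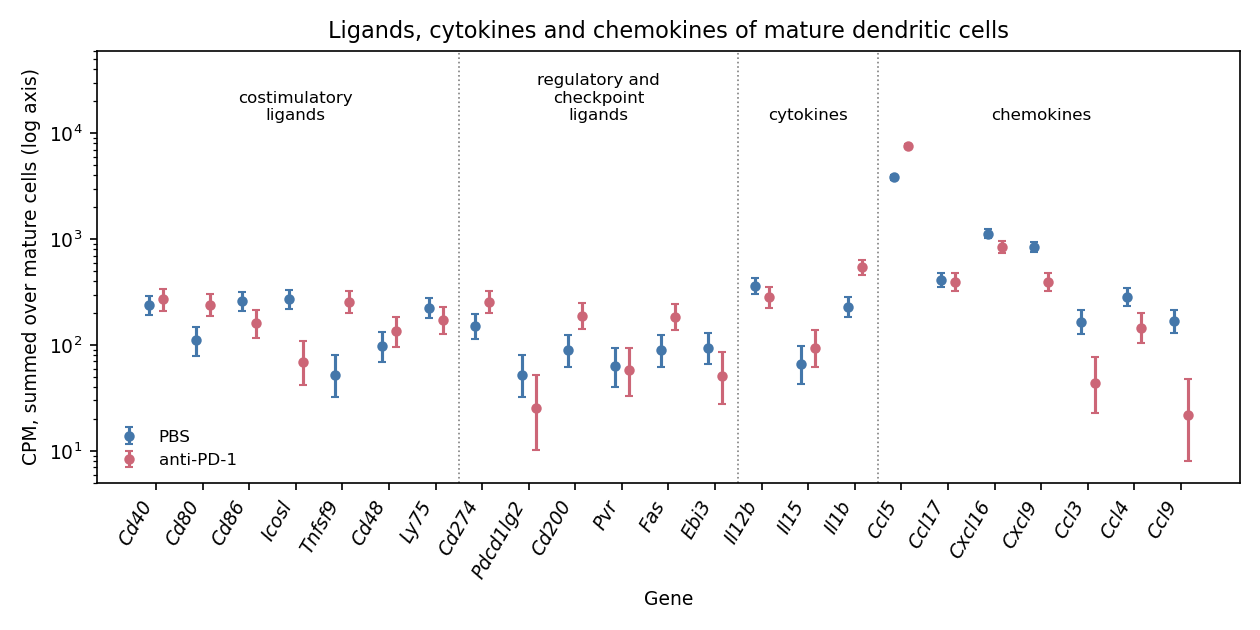
Points are CPM summed over mature cells of the PBS and anti–PD-1 library on a log axis, and bars are exact 95% Poisson intervals. Intervals of *Icosl*, *Tnfsf9*, *Cxcl9* and *Ccl5* do not overlap between the libraries, and those of *Cd40*, *Il12b* and *Ccl17* do. The intervals cover no spread between cells, and a single cell held 27.5% and 34.3% of the *Cxcl9* UMIs. The direction of *Cxcl9* did not hold under alternatives.

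Cytokine genes were few and uneven. *Il12b*, the p40 subunit of IL-12 and IL-23, had 138 UMIs in 14 PBS cells (363 CPM) and 78 UMIs in 12 anti–PD-1 cells (284 CPM), a log2 ratio of −0.34 (−0.75 to 0.06), which was −0.69 in thinned cells, 0.56 with cells of more than 5000 genes included and 0.16 without its largest cells. A single cell held 50.7% of these UMIs under PBS and 29.5% under anti–PD-1. In all other kept cells *Il12b* was at 1.80 and 5.45 CPM, and in T cells 0.0831% and 0.275% of cells had a UMI, and its level in mature cells was 3.19 and 2.51 above cDC1 and 5.22 and 4.88 above cDC2. *Il1b* was at 229 and 543 CPM, a log2 ratio of 1.21 (0.83 to 1.60) against 2.71 in all other kept cells. *Il15*, which sustains NK and memory T cells, was at 65.8 and 94.8 CPM, a ratio of 0.47 (−0.28 to 1.21), −0.92 in thinned cells and 0.76 with cells of more than 5000 genes included. *Il1b* was 0.84 without cells of the highest doublet scores. Of the 6 tested cytokines, 2 were at least 2-fold higher and 0 at least 2-fold lower, with a median of 0.16, which was −0.65 with cells weighted equally, −0.40 in thinned cells and 0.76 with cells of more than 5000 genes included.

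Chemokines differed in direction. *Ccl5*, a chemokine that attracts T cells, was the most abundant of the 11 tested, at 3819 CPM under PBS and 7588 CPM under anti–PD-1, a log2 ratio of 0.99 (0.89 to 1.09), and all other kept cells gave 0.98. The ratio of *Ccl5* in mature cells was 0.94 to 1.82 over alternatives, among them 1.52 with cells of more than 5000 genes included, 1.58 with more T and B cell genes excluded and 1.82 in cells that held Y-linked but not *Xist* UMIs. Its level was 5.82 and 5.67 above cDC1, though 62.4% and 75.9% of T cells, a main source of *Ccl5*, also held a UMI. *Ccl17*, which shares the receptor CCR4 with *Ccl22*, was at 413 and 394 CPM, a log2 ratio of −0.07 (−0.43 to 0.29), which was 2.55 in cells that held Y-linked but not *Xist* UMIs and 0.70 with cells weighted equally. *Cxcl16*, the ligand of CXCR6 on resident T cells, was at 1124 and 839 CPM, a log2 ratio of −0.42 (−0.65 to −0.19), and gave 0.46 with cells of more than 5000 genes included −0.16 without cells carrying RNA of other cells and 0.91 in cells that held Y-linked but not *Xist* UMIs.

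*Cxcl9*, an interferon-gamma-induced ligand of CXCR3, had 320 UMIs in 16 PBS cells (842 CPM) and 108 UMIs in 10 anti–PD-1 cells (394 CPM), a log2 ratio of −1.08 (−1.40 to −0.76), where all other kept cells gave 1.05. The share of cells with a UMI was 25.0% and 24.4%, and a single cell held 27.5% and 34.3% of the UMIs. The direction of *Cxcl9* did not hold: the ratio was 0.05 without cells carrying RNA of other cells, 1.66 with cells of more than 5000 genes included and 2.92 in cells that held Y-linked but not *Xist* UMIs. *Ccl9*, a macrophage chemokine, had 64 and 6 UMIs (−2.48, −3.37 to −1.55; −2.89 to −1.41 over alternatives). *Cxcl1*, a neutrophil chemokine, had 0 UMIs under PBS and 25, held by 2 cells, under anti–PD-1, with 52.0% in 1 of them, and neither cell remained without cells carrying RNA of other cells. Over the 11 tested chemokines, 3 were at least 2-fold higher and 3 at least 2-fold lower, with a median of −0.10, against 0.98 in all other kept cells. This median was −0.49 with at least 4 markers, 0.05 without cells carrying RNA of other cells, 1.57 with cells of more than 5000 genes included and 1.37 in cells that held Y-linked but not *Xist* UMIs.

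Between the libraries the maturation genes outside the selection had no common direction, with 3 of 30 at least 2-fold higher, 1 at least 2-fold lower and a median of 0.04 (−0.14 in thinned cells, 0.49 with cells of more than 5000 genes included, and 0.77 in cells that held Y-linked but not *Xist* UMIs). *Relb* was at 587 CPM under PBS and 627 CPM under anti–PD-1, a log2 ratio of 0.09 (−0.20 to 0.38), which was 1.31 in the few cells that held Y-linked but not *Xist* UMIs and −0.04 without cells carrying RNA of other cells. *Tmem123* was at 1732 and 1535 CPM (−0.17, −0.35 to 0.00; −0.41 to 0.57 over the alternatives). *Cd83*, a surface protein of mature dendritic cells that stabilizes MHC class II, was at 716 and 955 CPM (0.41, 0.16 to 0.66), but 1.03 with cells of more than 5000 genes included, 0.68 without cells carrying RNA of other cells and 0.05 in cells that held Y-linked but not *Xist* UMIs. The genes past 2-fold were *Cd200*, given above, *Eno2*, a glycolytic enolase, with 19 and 4 UMIs (−1.29, −2.25 to −0.15), *H2-M2*, a nonclassical MHC class I gene of mature dendritic cells, with 20 UMIs in 12 PBS cells and 52 UMIs in 9 anti–PD-1 cells (1.67, 0.99 to 2.36; 0.99 with cells of more than 5000 genes included and 2.60 in cells that held Y-linked but not *Xist* UMIs), and *Bcl2l14*, a BCL2 family member, with 50 and 104 UMIs (1.46, 0.98 to 1.94; 2.08 in the Y-linked cells), 33.7% of the latter in 1 cell.

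The NF-kB pathway, through which pattern recognition and CD40 drive dendritic cell maturation, was high in mature cells of both libraries. Over cDC1, 14 of 23 tested pathway genes were at least 2-fold higher in both libraries (medians, 1.40 and 1.69), where 8.54% of all tested genes were, and over cDC2, 6 of 23 were (medians, 0.92 and 0.70), where 7.13% of all tested genes were. Between the libraries 15 of 23 were higher in the anti–PD-1 cells, 2 of them at least 2-fold, and 0 were at least 2-fold lower, with a median of 0.16 (−0.01 to 0.60 over alternatives) against 0.38 in all other kept cells. *Nfkbia*, the inhibitor IkB-alpha, was at 890 CPM under PBS and 1594 CPM under anti–PD-1, a log2 ratio of 0.83 (0.63 to 1.04; 0.71 to 1.39 over alternatives) against 1.51 in all other kept cells. *Nfkbiz*, a nuclear IkB protein, was at 81.6 and 230 CPM (1.39, 0.80 to 1.99, but 0.76 with at least 4 markers, 0.89 with more T and B cell genes excluded, 2.06 in thinned cells and 2.26 with cells of more than 5000 genes included). *Nfkb2*, the p100/p52 precursor, was at 266 and 321 CPM (0.26, −0.15 to 0.67; 0.04 to 1.09 over alternatives), and *Rel* at 332 and 430 CPM (0.37, 0.00 to 0.73; 0.10 to 0.88 over alternatives). *Ikbkb*, a kinase of IkB, went the other way, at 208 and 117 CPM (−0.78, −1.37 to −0.21, but 0.28 in cells that held Y-linked but not *Xist* UMIs).

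Promoters of this pathway were read for the NF-kB motif GGG, any 2 bases and TTTCC on either strand, in the 250 bases before the annotated start from the RefSeq promoter table (GRCm38.p6). The motif was present for 447 of 27025 genes (1.65%) and for 4 of the 19 NF-kB pathway genes matched of 23. It was found in 0 of 4 matched selection markers, *Ccr7* not being matched. The windows of the 4 genes are shown because the pathway separated mature from resting cells above. They are written 5′ to 3′ on the strand of the gene, the capitals mark the motif or its reverse complement, and a match of letters is a description only.
Tnfaip3 chr10:19015411-19015447 (minus strand): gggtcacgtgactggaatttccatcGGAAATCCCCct
Rel chr11:23771026-23771085 (minus strand): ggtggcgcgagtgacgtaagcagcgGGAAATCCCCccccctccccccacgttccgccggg
Nfkbia chr12:55492648-55492701 (minus strand): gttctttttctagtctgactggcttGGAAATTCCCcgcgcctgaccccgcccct
Nfkb2 chr19:46304701-46304736 (plus strand): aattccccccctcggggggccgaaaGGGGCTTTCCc
Nfkb2 chr19:46305680-46305739 (plus strand, before another annotated start): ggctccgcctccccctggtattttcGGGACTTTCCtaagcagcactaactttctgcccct

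Of these 4 genes, *Nfkb2* was 2.03 and 2.75 above cDC1 and 1.50 and 1.78 above cDC2, in the PBS and anti–PD-1 library. *Rel* was 1.67 and 1.43 above cDC1, and 1.72 and 0.39 above cDC2. *Tnfaip3*, the feedback inhibitor A20, was 1.19 and 1.63 above cDC1, and 1.20 and 0.04 above cDC2, while *Nfkbia* was 1.00 and 1.69 above cDC1 and 0.53 and 0.44 above cDC2. All of them were thus above cDC1 in both libraries, and above cDC2 by less than 2-fold in the anti–PD-1 library for all but *Nfkb2*. Neutrophil markers summed to 595 CPM in the cDC2 gate under PBS and 6255 CPM under anti–PD-1. That gate, like the cDC1 gate described above, was thus not free of other cells' RNA. The part of this in the contrasts with cDC1 and cDC2 was not tested.

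Few antigen presentation genes passed 2-fold between the libraries. MHC class I machinery had 15 of 20 tested genes higher in the anti–PD-1 cells and 0 past 2-fold (median, 0.20, and 0.12 to 0.73 over alternatives, against 0.56 in all other kept cells), led by *H2-D1*, a classical class I heavy chain whose reads near-identical genes can share, at 3751 and 5543 CPM (0.56, 0.46 to 0.67; 0.40 to 1.05 over alternatives). *Nlrc5*, the class I transactivator, was at 208 and 106 CPM (−0.91, −1.52 to −0.32), but −0.04 with cells of more than 5000 genes included and −1.60 in thinned cells. MHC class II machinery outside the selection genes had 10 of 16 lower, 1 of them at least 2-fold, a share near the 55.9% of all tested genes (median, −0.30, but −0.05 without cells carrying RNA of other cells and −0.04 in cells that held Y-linked but not *Xist* UMIs). *Ciita*, the class II transactivator, had 115 UMIs in 23 PBS cells (303 CPM) and 32 UMIs in 12 anti–PD-1 cells (117 CPM), a ratio of −1.30 (−1.87 to −0.76) against −0.14 in all other kept cells, −0.39 with cells of more than 5000 genes included and −1.78 in thinned cells. The class II median was 0.36 with cells of more than 5000 genes included, so its sign rests on that limit.

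Type I interferon-stimulated genes were higher with anti–PD-1, in mature cells as elsewhere. Of 13 tested type I interferon-stimulated genes, 8 were at least 2-fold higher and 0 at least 2-fold lower, with a median of 1.29 in mature cells (0.82 to 2.16 over alternatives) and 1.32 in all other kept cells. *Isg15*, a ubiquitin-like modifier, was at 124 CPM under PBS and 485 CPM under anti–PD-1 (1.89, 1.42 to 2.36; 1.34 to 2.88 over alternatives), with 47.4% of the anti–PD-1 UMIs in 1 cell. *Ifi27l2a*, an interferon-inducible membrane protein, was at 60.5 and 368 CPM (2.42, 1.83 to 3.04), but 1.299 in cells that held Y-linked but not *Xist* UMIs and 3.49 with cells of more than 5000 genes included. The interferon-gamma list was mixed in mature cells: 13 of 21 genes were higher, 2 at least 2-fold and 2 at least 2-fold lower, with a median of 0.36, against 1.23 in all other kept cells. However, that median was 1.53 with cells of more than 5000 genes included and 0.14 with at least 4 markers. In cells that held Y-linked but not *Xist* UMIs it was 1.08. *Gbp2*, a guanylate-binding GTPase, was at 334 and 591 CPM (0.80, 0.47 to 1.14), against 1.99 elsewhere, and 0.46 without cells carrying RNA of other cells. Its ratio was 2.52 with cells of more than 5000 genes included and 2.71 in cells that held Y-linked but not *Xist* UMIs. Both exceed the 1.99, which was taken under the main limits only, so no contrast with the rest of the library is read. *Gbp2* was 3.12 above cDC1 under PBS and 1.78 under anti–PD-1.

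**Figure D5:**
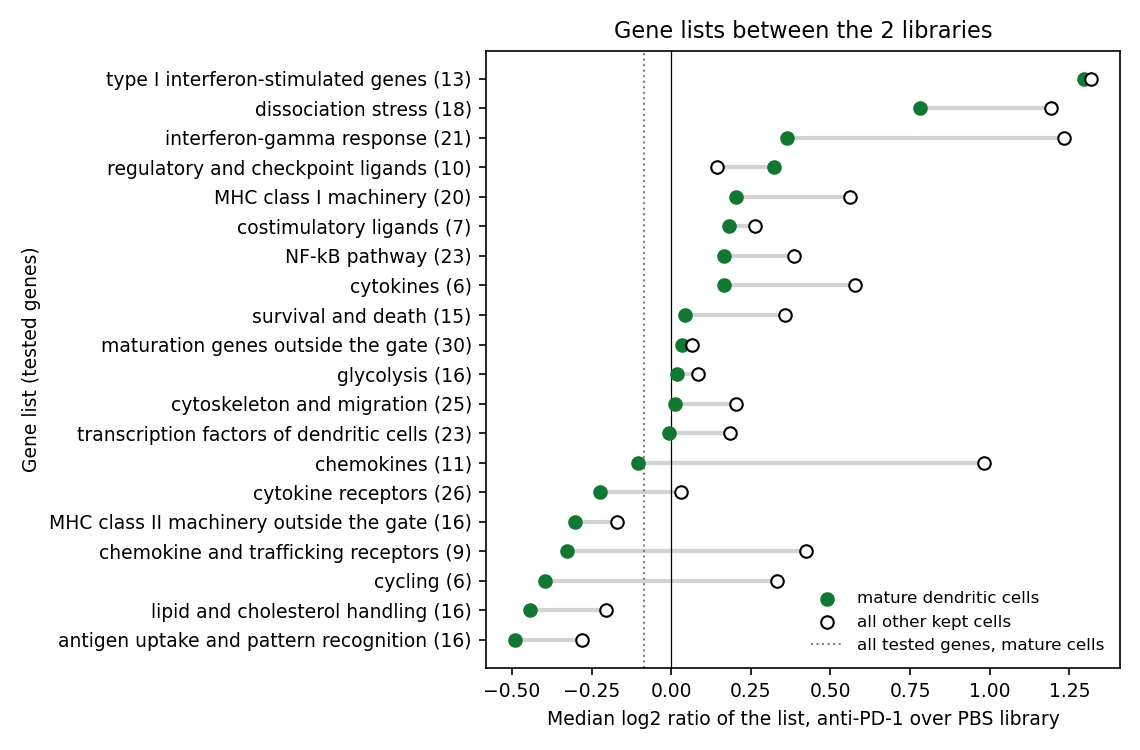
Filled points are the median log2 ratio (anti–PD-1 over PBS) of each gene list in mature dendritic cells, open points the same in all other kept cells, numbers in brackets are tested genes, and the dotted line is the median of all tested genes in mature cells (−0.08). The chemokine and interferon-gamma lists lie at −0.10 and 0.36 in mature cells and at 0.98 and 1.23 in all other kept cells. In mature cells that held Y-linked but not *Xist* UMIs these 2 medians were 1.37 and 1.08 (not drawn).

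Immediate-early and stress genes, which tissue digestion also raises, moved with the library. Of 18 tested, 7 were at least 2-fold higher in the anti–PD-1 cells and 0 at least 2-fold lower, with a median of 0.78 in mature cells (0.45 to 1.33 over alternatives) and 1.19 in all other kept cells. *Atf3*, a stress-induced transcription factor, was at 142 and 664 CPM (2.15, 1.72 to 2.58), with 36.8% of the anti–PD-1 UMIs in 1 cell, and *Junb*, an AP-1 subunit, at 766 and 1572 CPM (1.03, 0.81 to 1.24). In cells that held Y-linked but not *Xist* UMIs these ratios were 0.77 and 0.54. *Nfkbia*, *Nfkbiz* and *Nr4a1* also belong to genes that digestion can induce, and the part of handling in their ratios was not tested.

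Genes of antigen uptake and of other myeloid cells had medians below 0 whose sign or size rested on the cells included. In the uptake list 7 of 16 tested genes were at least 2-fold lower and 1 at least 2-fold higher (median, −0.49, but −0.06 without cells carrying RNA of other cells, 0.64 with cells of more than 5000 genes included, and between −0.95 and −1.14 with at least 4 markers, with more T and B cell genes excluded, for genes of at least 100 CPM and in cells that held Y-linked but not *Xist* UMIs). *Clec10a*, a galactose-type lectin of cDC2, had 50 UMIs in 5 PBS cells, 54.0% of them in 1 cell, and 0 UMIs in the anti–PD-1 cells. The monocyte and macrophage markers had 10 of 12 lower, 5 of them at least 2-fold, with a median of −0.95, which was 0.08 without the 17 and 11 cells carrying RNA of other cells and 0.54 with cells of more than 5000 genes included. It was between −1.58 and −1.85 with at least 4 markers, with more T and B cell genes excluded, without each gene's largest cell and in cells that held Y-linked but not *Xist* UMIs. *Apoe*, a lipid carrier of macrophages, was at 5714 and 2855 CPM (−0.998, −1.12 to −0.88), and all other kept cells gave −1.07. *Apoe* was −0.30 without cells carrying RNA of other cells and −0.01 with cells of more than 5000 genes included, and between −1.39 and −2.02 in thinned cells and under the 4 settings just named. The lipid and cholesterol list had 12 of 16 lower (median, −0.44, but 0.28 in thinned cells and −0.94 in cells that held Y-linked but not *Xist* UMIs), the cytoskeleton and migration list was even (13 higher and 12 lower, median 0.01, and −0.13 to 0.22 over alternatives), and 11 of 15 survival and death genes were higher with 0 past 2-fold (median, 0.04, and at most 0.32 over alternatives).

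Receptors through which mature cells sense their surroundings were mixed. Of 9 tested chemokine and trafficking receptors, 1 was at least 2-fold higher and 0 at least 2-fold lower. Their median of −0.33 had no settled sign, being −0.45 with at least 4 markers, 0.50 without cells carrying RNA of other cells, 0.51 with cells of more than 5000 genes included, 0.32 for genes with a mean of at least 100 CPM, 0.27 with cells weighted equally and 0.25 without each gene's largest cell. *Gpr132*, a receptor for lysophospholipids and lactate, had the most UMIs of them, at 237 and 339 CPM (0.50, 0.08 to 0.92; 0.32 to 1.00 over alternatives). Of 26 tested cytokine receptors, 17 were lower, 3 of them at least 2-fold, and 1 was at least 2-fold higher (median, −0.22; −0.32 to 0.28 over alternatives), so the share of lower genes was near the 55.9% of all tested genes. *Il1r2*, the decoy receptor of IL-1, had 8 UMIs in 5 PBS cells and 49 UMIs in 11 anti–PD-1 cells (2.60, 1.75 to 3.40), where all other kept cells, among which neutrophils also express it, gave 2.64. The ratio of *Il1r2* was 1.54 in cells that held Y-linked but not *Xist* UMIs and 3.04 with cells weighted equally. *Tgfbr1*, a TGF-beta receptor chain, had 53 UMIs in 23 PBS cells and 4 UMIs in 4 anti–PD-1 cells (−2.60, −3.48 to −1.57), against −1.10 in all other kept cells, and −0.93 with cells of more than 5000 genes included.

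Transcription factors of dendritic cells were balanced, with 11 of 23 higher and 12 lower, 2 and 3 of them past 2-fold (median, −0.01; −0.10 to 0.62 over alternatives). *Id2*, needed for conventional dendritic cells, was at 1498 and 2272 CPM (0.60, 0.43 to 0.76; 0.42 to 0.96 over alternatives) against −0.13 in all other kept cells. *Bcl6*, a repressor, had 34 UMIs in 23 PBS cells and 8 UMIs in 6 anti–PD-1 cells (−1.34, −2.26 to −0.41; −0.44 with cells of more than 5000 genes included). *Klf2*, a factor of quiescence and trafficking, had 36 and 64 UMIs (1.22, 0.65 to 1.79), against 1.49 in all other kept cells. The ratio of *Klf2* was between 0.37 and 0.65 with at least 4 markers, with more T and B cell genes excluded, with cells of more than 5000 genes included and without cells carrying RNA of other cells, and 1.59 in cells that held Y-linked but not *Xist* UMIs. *Irf8*, which specifies cDC1, was at 329 and 372 CPM (0.17, −0.21 to 0.55, 0.92 without cells carrying RNA of other cells, past 2-fold with cells of more than 5000 genes included and 0.01 in the Y-linked cells). It was 2.56 and 2.17 below cDC1 and 1.37 and 0.95 above cDC2. *Itgax*, the integrin CD11c, had 70 and 12 UMIs (−1.85, −2.65 to −1.08, but −0.74 with cells of more than 5000 genes included and 0.21 in cells that held Y-linked but not *Xist* UMIs).

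The genes with the highest ratios, among those in which no single cell held over 20% of UMIs in its library, were led by *Nfil3*, a transcription factor needed for cDC1 development. It had 9 UMIs in 9 PBS cells (23.7 CPM) and 65 UMIs in 22 anti–PD-1 cells (237 CPM), a log2 ratio of 2.87 (2.07 to 3.65; 1.96 with 50 CPM added), and all other kept cells gave 2.43. *Gpr65*, a proton-sensing receptor, had 8 UMIs in 8 cells and 40 UMIs in 19 cells (2.33, 1.46 to 3.14), with 0.64 in all other kept cells, but 1.09 in mature cells that held Y-linked but not *Xist* UMIs. Its ratio was 1.03 in cDC1 and 2.22 in cDC2, so the rise was not particular to mature cells. *Borcs8*, a subunit of the lysosome-positioning BORC complex, had 5 and 25 UMIs (2.13, 1.12 to 2.97; 0.85 with cells of more than 5000 genes included and 3.32 in cells that held Y-linked but not *Xist* UMIs), with −0.10 elsewhere. *Nr4a1*, an immediate-early nuclear receptor, had 21 and 75 UMIs (2.12, 1.48 to 2.77; 1.62 to 2.82 over alternatives), with 2.55 elsewhere. *Slc4a8*, a sodium-bicarbonate transporter, had 37 and 81 UMIs (1.51, 0.97 to 2.06; 0.98 with cells weighted equally), with 0.25 elsewhere, and *Pim1*, a cytokine-induced kinase, 64 and 135 (1.49, 1.07 to 1.92), with 1.78 elsewhere. For *Slc4a8* the ratio was also 1.41 in cDC1 and 1.22 in cDC2. *Nfil3*, *Nr4a1* and *Pim1* thus moved in the same direction in the rest of the library, while *Borcs8* did not.

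The other genes of this rank were *Spty2d1* (1.59), *Plekho2* (1.57), *Ifrd1* (1.57) and *Leprotl1* (1.56), each of which, like *Borcs8* and *Slc4a8*, fell below 2-fold under at least 1 alternative. Under the same limit of 20% of UMIs in a cell, the lowest ratios after *Xist* and *Tnfrsf9* were those of *Icosl* and *Anpep*, the myeloid aminopeptidase CD13, which had 73 UMIs in 28 PBS cells and 13 UMIs in 10 anti–PD-1 cells (−1.82, −2.59 to −1.06), though 0.63 with cells of more than 5000 genes included. *Bptf*, a chromatin remodeling subunit, had 68 UMIs in 35 cells and 14 UMIs in 12 cells (−1.63, −2.40 to −0.89), with 0.02 in all other kept cells and −0.55 with cells of more than 5000 genes included. *Sacm1l* (−1.70) and *Ubn2* (−1.68) lay between *Anpep* and *Bptf*, and *Wbp2* (−1.53), *Mpdu1* (−1.52) and *Pus10* (−1.47) followed *Bptf*. Each of these had fewer than 13 UMIs in the anti–PD-1 cells and was below 2-fold under at least 1 alternative. *Icosl* and *Bptf* were thus lower in mature cells by more than in all other kept cells pooled, a difference that was not tested. For *Icosl* the ratio was −0.44 in cDC1 and −0.92 in cDC2, and for *Bptf* 0.05 and −0.20. In mature cells that held Y-linked but not *Xist* UMIs that of *Icosl* was −0.56.

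Genes typical of tumor and biliary epithelium were detected in nearly every cell, and a few cells held most UMIs of some of them. A UMI of the list was found in 63 of 64 and 38 of 41 cells (median levels, 1133 and 790 CPM per cell) and in 95.5% and 87.5% of T cells. Thinned to 2000 UMIs, the shares were 86.9% and 71.4% of mature cells and 88.2% and 71.5% of T cells, and so did not exceed those in T cells. *Krt8*, a keratin, was at 521 CPM under PBS and 157 CPM under anti–PD-1 (−1.67, −2.15 to −1.21), with 83.8% and 53.5% of its UMIs in 1 cell, −0.18 without that cell of each library and −3.44 with more T and B cell genes excluded. *Clu*, the secreted chaperone clusterin, was at 534 and 2378 CPM (2.13, 1.91 to 2.36), with 49.8% of the anti–PD-1 UMIs in 1 cell, and gave −0.35 without cells carrying RNA of other cells and −1.30 with cells of more than 5000 genes included.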

How the data were processed

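The deposited tables hold UMI counts for each gene in each cell barcode, which the authors made with the Singleron software against mm10 from digested, dead-cell-depleted livers without hashtags. The software version, annotation and handling of strand and multimapped reads are not given in the sources used here. The submitters' processing notes name Seurat 4.3, whose normalization and integration were not repeated. Kept cells had 500 to 5000 genes detected and no more than 10% of UMIs from mitochondrial genes, as in the study's methods.

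Members were selected as stated in the report, and their UMIs were summed per library. Ratios used CPM plus 10 over genes with a mean of at least 25 CPM in the selected cells. Intervals are Clopper-Pearson for shares, Poisson for sums and conditional binomial for ratios. With 1 library per group no test was run. The cells and lists were chosen with earlier results of these data known. Named genes were the 10 highest and 10 lowest ratios with no cell over 20% of UMIs and an interval off 0, in each list the highest, the lowest and the 2 most counted, the selection genes, *Yap1*, *Wwtr1*, *Xist* and Y-linked genes. Other genes named, such as *Cd80*, *Fas*, *Ccl17*, *Cd83*, *Relb*, *Socs2*, *Nfkb2*, *Tgfbr1* and *Irf8*, were chosen after their values were seen. A planned cDC1 gate of at least 2 of 5 cDC1 genes also took C1q-rich macrophages (1381 and 982 cells), so the *Xcr1* and *Clec9a* gate was added after seeing the data, as were the alternative without cells carrying RNA of other cells and the shares of origin, cycling and epithelial genes in T cells. The doublet caller's automatic threshold marked 0 cells, so the top 5% of scores (763 and 818 cells) were left out in an alternative. Other alternatives changed the pseudocount, the CPM minimum, the scaling, the cell weights, the depth and the cell filters. 1 further gene is not reported here. Scripts used Python 3.11.15, numpy 2.4.6, scipy 1.17.1, pandas 2.3.3 and scanpy 1.11.5, and were tested on simulated data.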

Additional observations from a re-analysis of the deposited data

Results flagged for a closer look

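Genes are listed here that were at least 2-fold apart between the libraries in mature dendritic cells and at least 2-fold apart the opposite way in all other kept cells. In each case the difference was not tested, since each group is 1 library. *Tnfrsf9* had a log2 ratio (anti–PD-1 over PBS) of −2.87 in mature cells, a value that depends on the 10 CPM added since the anti–PD-1 cells held 0 UMIs, and 1.00 in all other kept cells, and *Cxcl9* −1.08 and 1.05. The direction of *Cxcl9* in mature cells reversed, to 0.05 without cells carrying RNA of other cells, 1.66 with cells of more than 5000 genes included and 2.92 in cells that held Y-linked but not *Xist* UMIs. *Ubd*, a ubiquitin-like protein induced by interferon-gamma, had −1.32 and 1.54, with 16 UMIs in 5 PBS cells and 3 UMIs in 2 anti–PD-1 cells.

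The other genes given here are best known from stromal and endothelial cells and rested on few cells. *Bgn*, a matrix proteoglycan, had a ratio of 2.44 (−1.72 in all other kept cells), with all but 1 of its 20 anti–PD-1 UMIs in 1 cell. *Tagln*, an actin-binding protein of smooth muscle, had 2.44 (−2.44), with all 16 anti–PD-1 UMIs in 1 cell. *Timp3*, a metalloproteinase inhibitor, had 1.66 (−1.49), with 93.5% of 31 in 1 cell. *Kdr*, a VEGF receptor, had 1.33 (−1.51) on 15 anti–PD-1 UMIs in 5 cells, and *Tm4sf1*, an endothelial surface protein, had 2.18 (−1.35) on 13 UMIs in 3 cells.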

How the results depend on the processing

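Of the main results, 75 of their values under alternatives stayed, 20 moved and 1 reversed. Stayed means within counting error or, for counts of genes, within 1.5 times the reported value. Changes of sign also occur among the values counted as moved or stayed. The cytokine median went from 0.16 to −0.65 and the chemokine median from −0.10 to 1.57, both counted as moved. That of costimulatory ligands went from 0.18 to −0.18 in Y-linked cells and was counted as stayed. The difference in share (anti–PD-1 minus PBS, −0.161 percentage points of kept cells) was −0.346 points of kept cells with at least 3 MHC class II UMIs, −0.217 points of the planned dendritic cell gates and 4.48 points, reversed, of mature, *Xcr1* and *Clec9a*, and cDC2 cells together. Counts of genes at least 2-fold higher and lower were 92 and 71 with a pseudocount of 50 CPM, 441 and 771 with a minimum mean of 10 CPM, 69 and 51 with 100 CPM, 673 and 805 after thinning to 2000 UMIs, and 704 and 1360 in cells that held Y-linked but not *Xist* UMIs. The count of higher genes was 127 without each gene's largest cell, and that of lower genes 639 with wider exclusion of T and B cells. Median log2 ratios were 0.98 for regulatory and checkpoint ligands at 100 CPM, −0.65 for cytokines with equal weight of cells and −0.40 thinned, 0.96 for costimulatory ligands with no upper limit on genes and 0.64 with wider exclusion, and 1.57 for chemokines with no upper limit and 1.37 in Y-linked cells.

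Of the values of other lists under alternatives, 181 stayed, 25 moved and 4 reversed, and of those of named genes 815 stayed, 172 moved and 16 reversed. Moved values here include changes of sign too, such as *Tnfrsf4* from −0.38 to 0.48 in Y-linked cells. They also include small shifts, since the counting interval ends at the reported value where a library held 0 UMIs. *Xist*, for example, went from −5.09 to −5.11 without cells of the highest doublet scores. With no upper limit on detected genes, MHC class II machinery was 0.36, antigen uptake 0.64, monocyte and macrophage markers 0.54, *Cxcl9* 1.66, *Il4i1* 0.012, *Anpep* 0.63, *Clu* −1.30, *Cxcl16* 0.46 and *Cd86* 0.51. In Y-linked cells *Cxcl9* was 2.92, *Anpep* 0.57, *Itgax* 0.21, *Ikbkb* 0.28 and *Cxcl16* 0.91. Without cells carrying RNA of other cells, monocyte and macrophage markers were 0.084, *Cxcl9* 0.053 and *Clu* −0.35. *Clu* was −0.36 with at least 4 markers and −0.77 with wider exclusion, and *Cd274* was −0.087 thinned. The causes were not tested. Leaving out a library leaves no comparison. No paired analysis was possible because each group is 1 library and no result comes from a test. At 64 and 41 cells, genes under about 25 CPM rest on fewer than 10 UMIs a library, and a level without replicates cannot be set against the spread between animals.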
